A study of Mus musculus with 20 samples.

Results

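Chaperones and co-chaperones, the proteins that fold other proteins, were followed here in mouse oocytes from prophase I to metaphase I. The genes were taken by symbol from 2 tables of normalised expression, one of ribosome-bound mRNA and one of total RNA. Symbols beginning with Cct and a digit, Hsp, Dnaj, Bag and a digit or Pfdn were kept, with Tcp1, and Hspa5, Hsp90b1, Dnajc3 and symbols beginning with Hspg were left out. This gave 55 of the 8114 genes listed in either table. Of these, 51 of 7543 genes were in the ribosome-bound table, 54 of 7917 in the total RNA table and 50 of 7346 in both. Dnajc16 was listed only on ribosomes, and Dnajb14, Dnajc5b, Dnajc5g and Hspb6 only in total RNA.

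Most of these proteins act in the cytosol, but the symbols also take in other compartments. Hspd1, Hspe1, Hspa9, Dnaja3 and Dnajc11 encode mitochondrial proteins. Dnajb11, Dnajb14, Dnajc1, Dnajc10, Dnajc14, Dnajc16 and Dnajc18 encode proteins of the endoplasmic reticulum (ER) or its membrane, and Hspd1-ps3 is a processed pseudogene. With these left out, 42 genes remained.

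The groups were ribosome-bound mRNA and total RNA (input) from the same kind of oocyte at 5 times. These were 0 h, in prophase I, then 2, 4 and 6 h, the early, mid and late steps of prometaphase I, and 8 h, in metaphase I. Every group came from C57BL/6 females of 3 weeks that carried Zp3-Cre and the RiboTag allele, so that the HA-tagged ribosomal protein is made in oocytes, where the Zp3 promoter is active. All mice had received 5 IU of PMSG 44 h before collection, and cumulus cells were stripped off by pipetting. All oocytes were held in 1 µM cilostamide, a phosphodiesterase inhibitor that keeps them in prophase I, and time counts from its removal. Each group had 2 libraries of 200 oocytes, 20 libraries in all. Nothing in the labels tells whether the 2 libraries of a group were taken from separate animals or cultures, and p-values therefore measure only the spread between these samples.

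HSP70 binds short exposed stretches of a protein, J proteins deliver the client and trigger ATP hydrolysis, and nucleotide exchange factors of the HSP110 and BAG families release it. HSP90 acts later on kinases and receptors, many of which drive the meiotic cell cycle. Prefoldin hands newly made actin and tubulin to the CCT ring, which folds them, and both proteins build the spindle and cortex of the dividing oocyte. Full-grown oocytes are transcriptionally quiet, and they regulate stored mRNAs through the length of the poly(A) tail and recruitment to ribosomes.

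The depth inferred from the tables was 27571236 to 44943993 reads per ribosome-bound library and 33154384 to 51714900 per total RNA library, counting listed genes only. Values were CPM scaled by a factor that differed between libraries, so that 282 to 533 reads lay behind a value of 10. On principal components of all genes, ribosome-bound 4 h replicate 1 stood apart on the next axis after time, at 35.2 with the next highest library at 4.88. The total RNA libraries of 8 h lay at -20.2 and 25.0 on the corresponding axis. All 13 oocyte markers were listed in both tables, with summed values of 27433 and 30934 on ribosomes at 8 h, against 62093 and 50265 at 0 h, and 18904 and 17853 in total RNA, against 18420 and 17854. Of 16 granulosa and cumulus markers, 5 were listed on ribosomes (Fshr, Cyp19a1, Nr5a2, Serpine2 and Esr2), with summed values of 557 and 553 at 8 h, against 231 and 249 at 0 h. In total RNA 7 were listed, at 467 and 607 at 8 h, against 435 and 384 at 0 h. The granulosa and cumulus markers in neither table included Foxl2 and Amh, while the 5 named above were in both. Of 11 blood, stroma and endothelial markers 2 were listed (Pecam1 and Tek), with sums of 106 and 162 on ribosomes at 8 h, against 155 and 189 at 0 h. The part of these markers in the results below was not tested. Values are shares of a library, so a rise or fall is relative to the other transcripts. The amount of RNA per oocyte cannot be read from them.

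Of the 51 chaperone transcripts listed on ribosomes, 33 changed there by metaphase I, and most of these fell. In limma, 27 fell and 6 rose at 8 h against 0 h at a Benjamini-Hochberg adjusted p under 0.05, or 52.9% and 11.8%. Over all 7543 genes the shares were 21.8% down and 20.2% up. Each ribosome-bound family count at 8 h below stands beside these shares. The median log2 change was -0.82 for the chaperones and -0.06 for all genes. The 42 genes without the mitochondrial, ER and pseudogene members had 39 listed on ribosomes, of which 20 fell and 5 rose, with a median of -0.77. Most subunits of CCT and prefoldin fell, as did the HSC70 gene Hspa8, most HSP110 and BAG genes and the mitochondrial chaperones. Those that rose were Hsp90ab1, Pfdn4, Hspa14, Dnajb4, Dnajc14 and Dnaja1. Both 8 h libraries lay outside the range of the 0 h libraries in all 33 genes that passed, but also in 11 of the 18 that did not. The same count was not made over all genes, so it says nothing about chaperones as a set. Together the 51 genes made up 0.703% and 0.671% of the ribosome-bound values at 8 h, against 0.856% and 0.917% at 0 h. After ± stand limma standard errors, with 2 libraries a group.

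**Figure D1:**
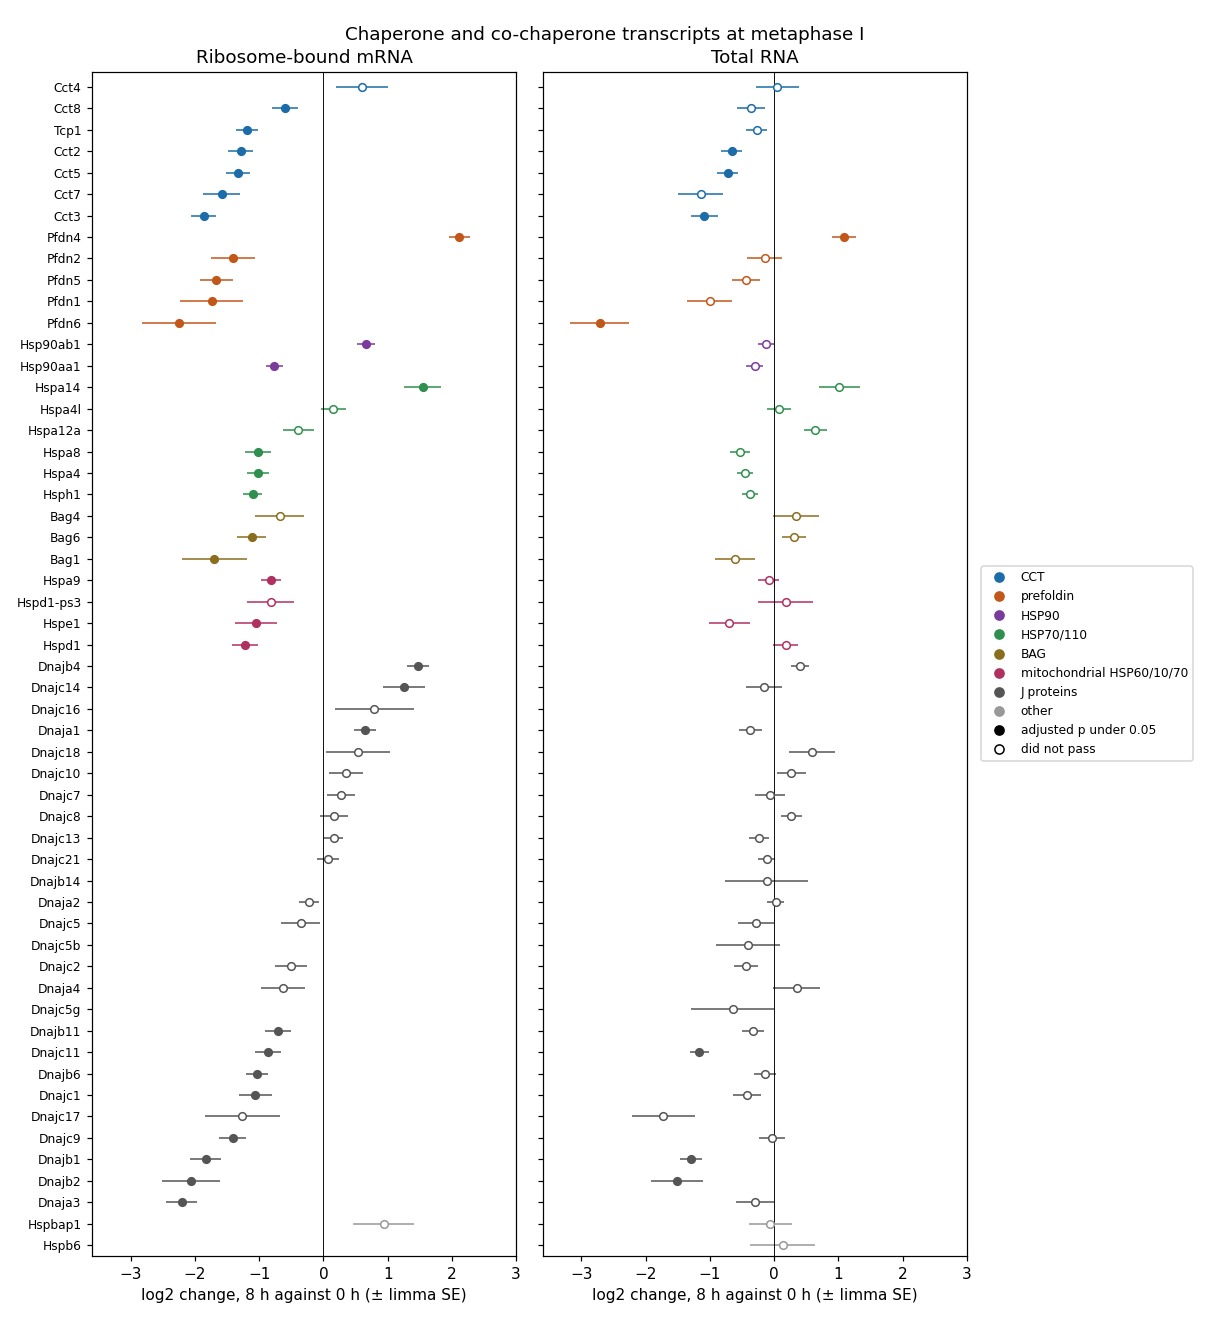
Log2 change at 8 h against 0 h (x axis, with limma standard errors) of each chaperone gene (y axis, by family) in ribosome-bound mRNA and in total RNA, 2 libraries a group. Filled points passed an adjusted p of 0.05: 27 fell and 6 rose on ribosomes, and 7 fell and 1 rose in total RNA.

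The 2 cytosolic HSP90 genes moved in opposite directions on ribosomes. Hsp90ab1 encodes the constitutive form and Hsp90aa1 the form that heat shock induces. Hsp90ab1 (ENSMUSG00000023944.14, chromosome 17, 45567775 to 45573271, mm10) had normalised values of 796 and 949.9 on ribosomes at 8 h, against 538 and 559.8 at 0 h. It rose by a log2 of 0.66 ± 0.14 (adjusted p 0.000854), and both 8 h libraries were higher than both 0 h libraries. Hsp90aa1 (ENSMUSG00000021270.13, chromosome 12, 110690605 to 110702728) had 712 and 763 at 8 h, against 1373 and 1147 at 0 h. It changed by -0.77 ± 0.13 (adjusted p 0.000186), with both 8 h libraries below both 0 h libraries. In total RNA neither passed. Hsp90ab1 had 409 and 443 at 8 h, against 476 and 452 at 0 h, and Hsp90aa1 had 606 and 588, against 726 and 749. The ribosome-bound change of Hsp90ab1 was above its total RNA change by 0.79 ± 0.18 (adjusted p 0.00265). For Hsp90aa1 the same difference was -0.46 ± 0.19 and did not pass (adjusted p 0.0805).

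Their order per length turned over during the time course. Per kilobase of transcript, the mean value of Hsp90ab1 on ribosomes was 218, 228, 306, 324 and 346 at 0, 2, 4, 6 and 8 h. For Hsp90aa1 it was 384, 322, 350.4, 289.9 and 225. Hsp90ab1 was therefore the lower up to 4 h and the higher at 6 h and 8 h, with no overlap of libraries at any of the 5 times. In total RNA the mean of Hsp90aa1 was the higher per kilobase at each time, at 182 against 169 for Hsp90ab1 at 8 h, and 225 against 184 at 0 h, although the libraries of 6 h overlapped. Reads shared between the 2 close paralogs may be split by the counting, so both values carry that uncertainty.

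The 3′ end of an mRNA bears on recruitment in oocytes, because the cytoplasmic polyadenylation element, written TTTTAT or TTTTAAT in DNA letters, is known to direct tail lengthening. Hsp90ab1 held 2 such elements in the last 150 bases of its 3′ untranslated region, and Hsp90aa1 held none there. The sites of Hsp90ab1 and of Dnajb4, another transcript that rose, are shown with the element in capitals, from GENCODE vM21 transcripts on mm10.
Hsp90ab1 site 1, chr17:45567813-45567842, minus strand: tttttttgtttgTTTTATtttgttctaaaa
Hsp90ab1 site 2, chr17:45567775-45567804, minus strand: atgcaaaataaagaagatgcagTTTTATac
Dnajb4 site 1, chr3:152184059-152184088, minus strand: tactgtcttctgTTTTATatctatcaaaag
Dnajb4 site 2, chr3:152183955-152183984, minus strand: tgagtcctatagtctTTTTAATagaatgtg

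The second site of Hsp90ab1 began 8 bases before the annotated end of the transcript, and the other began 56 bases before it. Among chaperones with such a window, 2 of the 5 that rose on ribosomes held an element, against 2 of the 23 that fell and 3 of the 15 that did not pass. Of all listed genes with a window, 1975 of 7177 (27.5%) held one. Pfdn4, Dnajc14 and Dnaja1 rose and held none in this window, and Hspa14 had too short an annotated region. The elements of Dnajc9 and Hspe1, both of which fell, are shown for comparison, again in capitals.
Dnajc9 site 1, chr14:20384677-20384706, minus strand: ctcttttgaactTTTTATctacaagagtga
Hspe1 site 1, chr1:55091195-55091224, plus strand: tccatgcctcccTTTTATaataaacagatg

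A match is a description of these letters on the transcript strand and not a site shown to act, and no match says only that the letters were not in this window.

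Of the CCT ring, Tcp1 and 6 numbered subunits were listed, and Cct6a was not analysed here. On ribosomes 6 of 7 fell, with a median log2 change of -1.29, and none rose. Cct3 (ENSMUSG00000001416.13, chromosome 3, 88297116 to 88321767), the gamma subunit, had 43.5 and 42.9 at 8 h, against 148 and 173 at 0 h. It changed by -1.86 ± 0.20 (adjusted p 1.3e-06), the largest fall among the subunits. Tcp1, the alpha subunit, had 101 and 106 at 8 h, against 219 and 258 at 0 h, a change of -1.19 ± 0.17 (adjusted p 2.61e-05). Both genes had all 8 h values below all 0 h values, and the 8 h replicates of each lay close together. Cct2, the beta subunit, had 115 and 138 at 8 h, against 368 and 259 at 0 h (-1.29 ± 0.20, adjusted p 6.02e-05). Cct5, the epsilon subunit, had 124 and 84.8, against 274 and 245 (-1.33 ± 0.19, adjusted p 3.5e-05). Cct7, the eta subunit, had 23.2 and 20.6, against 83.5 and 54.8 (-1.58 ± 0.29, adjusted p 0.000331). These 3 subunits fell by similar amounts, with no overlap between times. Cct8, the theta subunit, fell least, with 77.7 and 62.6 at 8 h against 98.9 and 114 at 0 h (-0.60 ± 0.20, adjusted p 0.024). Its call ended when 0 h replicate 2 (-0.50) or 8 h replicate 2 (-0.44) was left out. Cct4, the delta subunit, had the lowest level per kilobase of the 7 (6.61 averaged over all times on ribosomes). It had 24.7 and 13.9 at 8 h against 14.6 and 9.71 at 0 h, and did not pass (0.60 ± 0.41, adjusted p 0.247). The lower 8 h library of Cct4 lay inside the 0 h range. Together the 7 CCT genes made up 0.0506% and 0.0445% of the ribosome-bound values at 8 h, against 0.120% and 0.114% at 0 h.

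In total RNA 3 of the 7 CCT genes fell at 8 h and none rose, with a median of -0.66. Over all genes 3.02% fell there and 0.947% rose. Cct3 had 38.1 and 31.4 at 8 h, against 71.7 and 77.9 at 0 h (-1.09 ± 0.21, adjusted p 0.00527). Cct5 changed by -0.72 ± 0.16 (adjusted p 0.0129) and Cct2 by -0.66 ± 0.16 (adjusted p 0.0257). The 8 h and 0 h libraries did not overlap in any of the 3. All 3 calls ended without total RNA 0 h replicate 1 (Cct3 -1.15, Cct5 -0.65, Cct2 -0.73). That of Cct3 also ended without 0 h replicate 2 (-1.03), and that of Cct5 without 8 h replicate 2 (-0.57) or without the mean-variance trend. That of Cct2 also ended without 0 h replicate 2 (-0.58) or 8 h replicate 1 (-0.63), without the trend and with the length and GC correction (-0.57). Tcp1 differed between the RNA kinds. In total RNA it had 96.7 and 118 at 8 h, against 132 and 126 at 0 h, and did not pass (-0.27 ± 0.16, adjusted p 0.394). Its ribosome-bound minus total RNA change was -0.92 ± 0.22 on the log2 scale (adjusted p 0.0041). It was the one CCT gene whose difference between RNA kinds passed, against 9.43% below 0 and 11.6% above of all genes. The other 6 ranged from -0.77 (Cct3, adjusted p 0.0504) to 0.55 (Cct4), and their median over all 7 was -0.61. The exons of Tcp1 overlap those of Mrpl18 on the opposite strand, those of Cct7 overlap Pradc1 and those of Cct8 overlap Usp16. Whether the counting used strand is not given. Of the 55 chaperone genes, 26 share exon sequence with another annotated gene, and not all are named here. On the same strand, Hspa14 overlaps Gm45902, Pfdn5 overlaps Myg1 and Dnaja3 overlaps Vasn. The part of such overlaps in the values was not tested.

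Prefoldin is built from PFDN1, PFDN2, PFDN4, PFDN5 and PFDN6 with VBP1, and its transcripts split. Of the 5 Pfdn genes, 4 fell on ribosomes and Pfdn4 rose. Pfdn4 (ENSMUSG00000052033.13, chromosome 2, 170496428 to 170519123) had 488 and 515 at 8 h, against 108 and 122 at 0 h. Its change of 2.12 ± 0.16 (adjusted p 3.5e-08) was the largest rise of any chaperone gene. Both 8 h libraries lay above both 0 h libraries and close to each other. Pfdn5 had 37.8 and 49.6 at 8 h, against 154 and 127 at 0 h (-1.67 ± 0.26, adjusted p 6.43e-05). Pfdn2 had 49.5 and 20.5, against 66.1 and 112 (-1.41 ± 0.34, adjusted p 0.00304). Both fell without overlap, but the 8 h libraries of Pfdn2 lay far apart, and its call ended without 8 h replicate 2 (-0.79). Pfdn6 had 0.749 and 6.61 at 8 h, against 16 and 16.8 at 0 h (-2.25 ± 0.58, adjusted p 0.00451). Pfdn1 had 7.87 and 3.85, against 17.8 and 24.5 (-1.74 ± 0.49, adjusted p 0.00816). These 2 had the lowest levels per kilobase of the prefoldin genes (11.1 for Pfdn1 and 18.4 for Pfdn6 averaged over all times on ribosomes). In both, the 8 h libraries lay below both 0 h libraries. The call of Pfdn6 ended without 8 h replicate 1 (-1.19) and after a correction for transcript length and GC (-1.45), and that of Pfdn1 without 0 h replicate 2 (-1.52) or 8 h replicate 2 (-1.30). Vbp1, the remaining subunit, did not pass, with 32.5 and 34.8 at 8 h against 37.6 and 41.2 at 0 h (log2 -0.22).

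Pfdn4 also rose in total RNA, the one chaperone gene to do so. It had 714 and 476 at 8 h, against 269 and 278 at 0 h (1.09 ± 0.19, adjusted p 0.00223), and no longer passed without total RNA 0 h replicate 1 (1.07) or without the mean-variance trend. Its ribosome-bound rise was larger than its total RNA rise by 1.03 ± 0.27 (adjusted p 0.00764). That difference did not pass without total RNA 8 h replicate 2 (0.74). Pfdn6 fell in total RNA too, with 1.5 and 4.6 at 8 h against 29.2 and 19.1 at 0 h (-2.72 ± 0.46, adjusted p 0.00168), and did not pass without total RNA 0 h replicate 1 (-2.42). Its difference between RNA kinds was 0.46 ± 0.78 (adjusted p 0.713). Pfdn5 had 53.4 and 44.3 at 8 h in total RNA, against 76.5 and 57.3 at 0 h, and did not pass there (adjusted p 0.301). Its ribosome-bound minus total RNA change was -1.23 ± 0.35 (adjusted p 0.0141), a call that ended in 5 of the alternative settings. Pfdn1 and Pfdn2 passed neither in total RNA (-1.0 and -0.15) nor in the difference (-0.74 and -1.26).

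**Figure D2:**
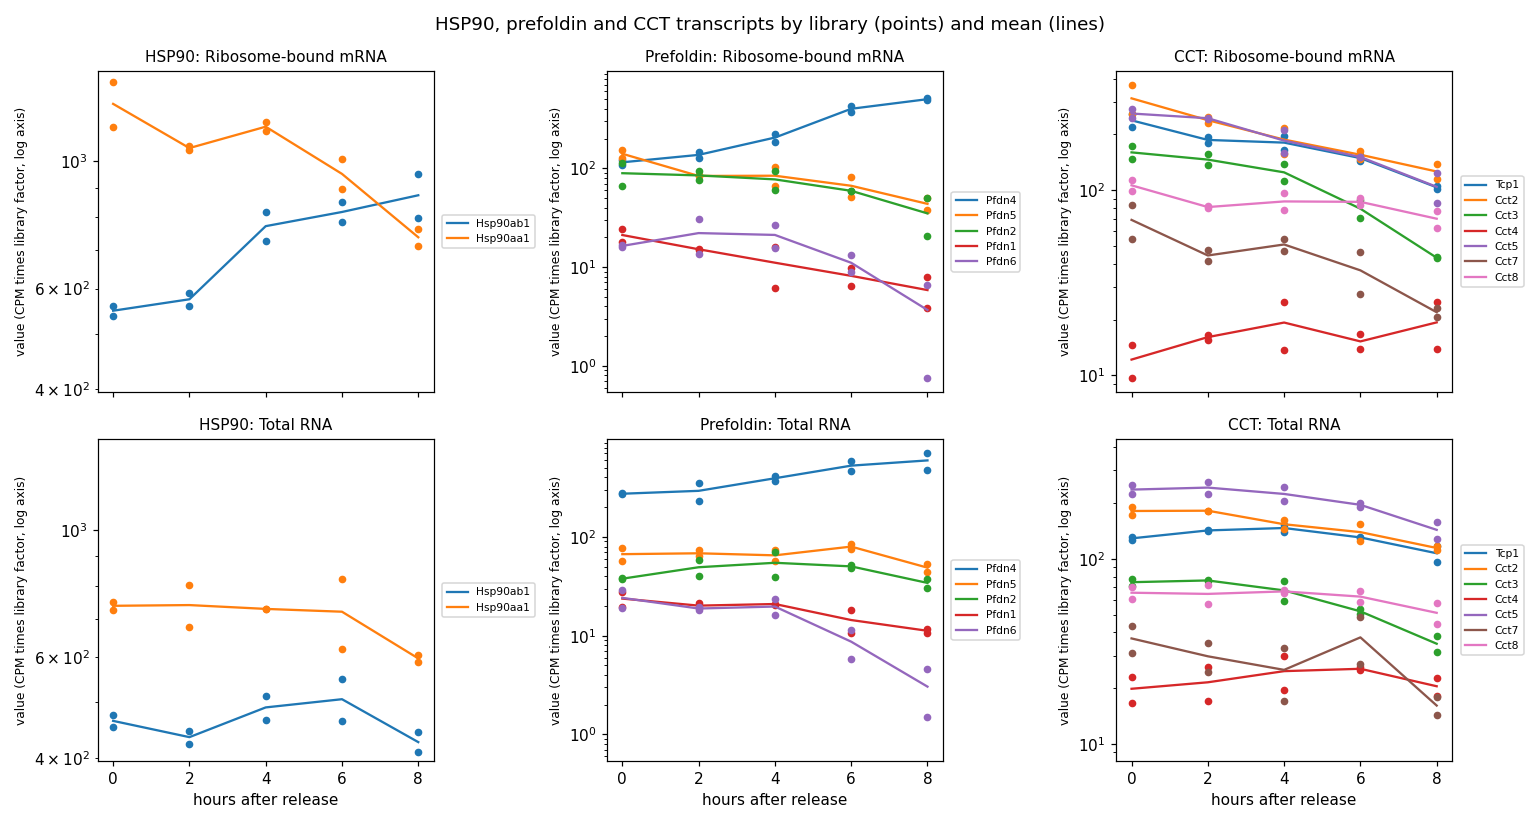
Values per library (points) and means of 2 libraries (lines), on a log axis, by hours after release for the HSP90, prefoldin and CCT genes in ribosome-bound mRNA (top) and total RNA (bottom). On ribosomes Hsp90ab1 and Pfdn4 climb while Hsp90aa1, the other prefoldin genes and all CCT genes but Cct4 decline.

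Among the 6 HSP70 and HSP110 genes of the cytosol, 3 fell on ribosomes, Hspa14 rose and 2 did not pass. Hspa8, the constitutive HSC70, had 84.5 and 55.8 at 8 h, against 140.1 and 139 at 0 h (-1.01 ± 0.20, adjusted p 0.000686). Hsph1, an HSP110 exchange factor, had 343 and 296, against 658 and 715 (-1.10 ± 0.15, adjusted p 1.78e-05). Hspa4, another HSP110, had 255 and 232, against 523 and 466 (-1.02 ± 0.17, adjusted p 0.000162). In each of the 3 the 8 h libraries lay below both 0 h libraries. Hspa14, an HSP70 that pairs with DNAJC2 at the ribosome in human cells, had 38.6 and 47.6 at 8 h, against 14.9 and 13.3 at 0 h. It rose by 1.54 ± 0.28 (adjusted p 0.000335) with no overlap. Its partner Dnajc2 did not pass, with 72.9 and 55.2 at 8 h against 79.7 and 103 at 0 h (-0.51). Hspa4l, a further HSP110, did not pass either (0.15 ± 0.19, adjusted p 0.543). Hspa12a, a divergent HSP70, had 102 and 95.9 at 0 h, 68.1 and 81.6 at 2 h, 43.05 and 68.4 at 4 h, 50.97 and 59.4 at 6 h and 68.4 and 82.5 at 8 h. It was lower than at 0 h at 4 h (-0.85 ± 0.24, adjusted p 0.0203) and 6 h (-0.83 ± 0.24, adjusted p 0.014), but did not pass at 8 h (-0.39 ± 0.24, adjusted p 0.194).

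None of the 6 passed in total RNA, where Hspa14 had 27.5 and 30.9 at 8 h against 15.1 and 12.9 at 0 h (1.01 ± 0.32, adjusted p 0.0875). Hspa8 was close to the threshold there, with 148 and 127 at 8 h against 203 and 196 at 0 h (adjusted p 0.0523). Hsph1 had 363 and 329.8 in total RNA at 8 h, against 476 and 423 at 0 h, and its ribosome-bound minus total RNA change was -0.73 ± 0.19 (adjusted p 0.00826). Hspa12a had 123 and 111 in total RNA at 8 h, against 73.5 and 75.2 at 0 h, and a difference of -1.03 ± 0.29 (adjusted p 0.014). In both genes the ribosome-bound change was below the total RNA change. The call of Hspa12a ended without ribosome-bound 8 h replicate 1 (-0.90) or total RNA 8 h replicate 1 (-0.96).

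Most HSP110 and BAG genes fell as well. Counted together, 4 of 6 fell on ribosomes and none rose, with a median of -1.06. Bag6, which guards hydrophobic proteins on their way to the membrane or the proteasome, had 88.9 and 72.4 at 8 h, against 209.9 and 146 at 0 h (-1.12 ± 0.23, adjusted p 0.000817). In total RNA it had 226 and 186 at 8 h, against 176 and 156 at 0 h, and did not pass (0.31 ± 0.19, adjusted p 0.403). Its ribosome-bound minus total RNA change was -1.42 ± 0.31 (adjusted p 0.00181), with both 8 h libraries below 0 h on ribosomes and both above 0 h in total RNA. Bag1, an HSP70 exchange factor, had 8.29 and 13.1, against 36.9 and 35.3 (-1.70 ± 0.50, adjusted p 0.0114), and did not pass without 8 h replicate 1 (-1.40) or with the length and GC correction (-1.02). Bag4, which shares the BAG domain, did not pass at 8 h (-0.68 ± 0.39, adjusted p 0.165) but was lower at 6 h (-1.07 ± 0.39, adjusted p 0.0464).

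J proteins, the most numerous family here, moved both ways. Of 23 on ribosomes, 8 fell, 3 rose and 12 did not pass, with a median of -0.36. Over all genes 21.8% fell and 20.2% rose. Dnajb4 (ENSMUSG00000028035.13, chromosome 3, 152178511 to 152210302), a cytosolic partner of HSC70, had 746 and 681 at 8 h, against 228 and 287 at 0 h, and rose by 1.47 ± 0.17 (adjusted p 2.96e-06). Dnaja1, a farnesylated cytosolic J protein, had 304 and 373, against 237 and 195, and rose by 0.65 ± 0.17 (adjusted p 0.00478). Dnajc14, a J protein of the ER membrane, had 72.5 and 62.1, against 42.7 and 17.6, and rose by 1.26 ± 0.32 (adjusted p 0.00475). No 8 h library of these 3 overlapped a 0 h library, although the 0 h replicates of Dnajc14 lay far apart. The call of Dnaja1 ended without 8 h replicate 2 (0.50) and after correcting for the length and GC content of transcripts (0.07). That of Dnajc14 ended without 0 h replicate 2 (0.64). Dnaja1 shares exons with Smu1 on the opposite strand, whose mean ribosome-bound value was 226 at 8 h, against 133 at 0 h. Dnajc14 shares exons with Sarnp on the same strand, with a mean of 15 at 8 h, against 7.14 at 0 h.

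The rises of these 3 J proteins on ribosomes had no called counterpart in total RNA. Dnajb4 had 620.3 and 500.3 in total RNA at 8 h, against 428 and 415 at 0 h (0.40 ± 0.13, adjusted p 0.103). Dnaja1 had 256 and 213, against 324 and 283 (-0.37 ± 0.18, adjusted p 0.265). Dnajc14 had 114 and 51.5, against 87.7 and 84.1 (-0.16 ± 0.28, adjusted p 0.81). In total RNA Dnaja1 was therefore lower in each 8 h library, and the 8 h libraries of Dnajc14 lay on either side of the 0 h values. The ribosome-bound change exceeded that of total RNA by 1.07 ± 0.22 in Dnajb4 (adjusted p 0.000999), 1.02 ± 0.26 in Dnaja1 (adjusted p 0.00571) and 1.41 ± 0.47 in Dnajc14 (adjusted p 0.0319). The last of these ended in 8 of the alternative settings, and that of Dnaja1 with the length and GC correction (0.57).

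The J proteins that fell included stress-linked and histone-linked ones. Dnajb1, the classical HSP40, had 36.8 and 27.3 on ribosomes at 8 h, against 105 and 127 at 0 h (-1.83 ± 0.24, adjusted p 1.45e-05). Dnajb2, a J protein with ubiquitin-binding motifs, had 10.6 and 5.2, against 22.5 and 51.97 (-2.06 ± 0.46, adjusted p 0.00156). Both also fell in total RNA. There Dnajb1 had 79.2 and 76.3 at 8 h, against 227 and 163 at 0 h (-1.30 ± 0.18, adjusted p 0.000276). Dnajb2 had 3.71 and 4.6, against 15.2 and 12.3 (-1.52 ± 0.41, adjusted p 0.0395), and lost that call in 5 settings. These were without total RNA 0 h replicate 1 (-1.38), 0 h replicate 2 (-1.66) or 8 h replicate 1 (-1.39), with a pseudocount of 5 (-1.03) and with the length and GC correction (-1.35). The differences between RNA kinds did not pass, at -0.54 for Dnajb1 and -0.54 for Dnajb2. Dnajc9, a histone chaperone, had 76.7 and 68.6 on ribosomes at 8 h, against 152 and 249.5 at 0 h (-1.41 ± 0.21, adjusted p 4.42e-05). In total RNA it had 92.5 and 75.3, against 95.98 and 75.7, and the difference of the changes was -1.38 ± 0.30 (adjusted p 0.00178). Dnajc9 thus fell on ribosomes with overlapping values in total RNA. Dnajb6, which suppresses protein aggregation, had 141 and 135 on ribosomes at 8 h, against 257 and 311 at 0 h (-1.03 ± 0.17, adjusted p 9.85e-05). Its difference from total RNA was -0.89 ± 0.24 (adjusted p 0.00952) and did not pass without total RNA 8 h replicate 1 (-0.65).

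Of the J proteins of the ER, 2 of 6 listed on ribosomes fell and Dnajc14 rose. The shares over all genes were 21.8% down and 20.2% up. Dnajc1, a membrane J protein of the ER, changed by -1.06 ± 0.26 (adjusted p 0.00322) and Dnajb11, a luminal partner of BiP, by -0.71 ± 0.20 (adjusted p 0.00938). The call of Dnajb11 ended without 0 h replicate 2 (-0.43) or 8 h replicate 2 (-0.59). Dnajc1 shares exons with Mllt10 on the opposite strand, which had a mean of 535 on ribosomes at 8 h, against 219 at 0 h. Of the ER members that did not pass, Dnajc10, a disulfide reductase, was at 0.35, Dnajc16 at 0.79 and Dnajc18 at 0.54. Dnajb14, listed in total RNA only, was at -0.12 there.

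The remaining J proteins did not pass on ribosomes at 8 h. Dnajc21, a factor of ribosome assembly, had 448 and 436 at 8 h, against 339 and 518 at 0 h (0.08 ± 0.17, adjusted p 0.745). Dnajc13, which acts at endosomes, had 464 and 474, against 417 and 424 (0.16 ± 0.15, adjusted p 0.416). Dnaja2, a close relative of Dnaja1, had 219.8 and 242, against 249 and 292 (-0.23 ± 0.16, adjusted p 0.265). Its 8 h libraries were both lower than its 0 h libraries, while Dnajc13 was higher in both and Dnajc21 overlapped. The log2 changes of Dnajc7, a co-chaperone of HSP70 and HSP90, Dnajc8, a splicing-linked protein, and Dnajc5, the cysteine string protein, were 0.27, 0.16 and -0.36. Dnaja4 was at -0.63 and Dnajc17 at -1.26. Dnaja4 had been lower at 4 h (-1.06 ± 0.34, adjusted p 0.0428). Dnajc5b and Dnajc5g, relatives of Dnajc5 listed in total RNA only, were at -0.40 and -0.64 there and did not pass. Hspbap1, whose product binds the small heat shock protein HSPB1, was at 0.94 on ribosomes, and the small heat shock gene Hspb6 was at 0.13 in total RNA. Neither passed, and Hspb1 was not analysed here.

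All 5 mitochondrial chaperone genes fell on ribosomes at 8 h, with a median of -1.05. Hspd1 (ENSMUSG00000025980.14, chromosome 1, 55077835 to 55088243), which encodes HSP60, had 86.8 and 86.3 at 8 h, against 168 and 245 at 0 h (-1.22 ± 0.21, adjusted p 0.000159). Hspe1, which encodes its lid HSP10, had 13.1 and 17.1, against 30.02 and 34.4 (-1.05 ± 0.32, adjusted p 0.0143). Dnaja3 (ENSMUSG00000004069.16, chromosome 16, 4639989 to 4707695), a mitochondrial J protein, had 25.6 and 21.1, against 109 and 113 (-2.21 ± 0.24, adjusted p 1.47e-06). Dnaja3 fell furthest of the 5, and none of the 3 overlapped between times. Hspa9, the HSP70 of the matrix, changed by -0.82 ± 0.16 (adjusted p 0.000551). Dnajc11, a partner of the inner membrane organising system, changed by -0.86 ± 0.20 (adjusted p 0.0025) and did not pass without 8 h replicate 2 (-0.63). The call of Hspe1 ended with the length and GC correction (-0.36) and without 0 h replicate 2 (-0.96) or 8 h replicate 1 (-0.87). The pseudogene Hspd1-ps3, which can share reads with Hspd1, was at -0.82 and did not pass.

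In total RNA these 5 genes parted. Dnajc11 had 113 and 113 at 8 h, against 259 and 251 at 0 h, and fell (-1.17 ± 0.15, adjusted p 0.000147). Hspd1 had 82.5 and 62.3, against 61.9 and 64.6 (0.18 ± 0.20, adjusted p 0.688), and Dnaja3 had 35.8 and 35.7, against 42.8 and 45.9 (-0.30 ± 0.30, adjusted p 0.635). Of the 5, Dnajc11 alone passed in total RNA, against 3.02% down and 0.947% up of all genes. The ribosome-bound change was below the total RNA change in Dnaja3 (-1.91 ± 0.39, adjusted p 0.00114), Hspd1 (-1.39 ± 0.29, adjusted p 0.0011) and Hspa9 (-0.74 ± 0.22, adjusted p 0.0175). Over all genes 9.43% passed below 0 and 11.6% above. For Dnajc11 the difference was 0.31 and for Hspe1 -0.35, and neither passed. That of Hspa9 did not pass without ribosome-bound 0 h replicate 2 (-0.65) or total RNA 0 h replicate 1 (-0.73).

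Hspd1 and Hspe1 lie head to head and share a promoter, which held heat shock elements, the sequence that heat shock factor binds. The motif searched was GAA, TTC and GAA with any 2 bases between them, on both strands, in RefSeq windows of 250 bases before to 50 after each start (GRCm38.p6). It was found in 6 of 59 windows of chaperone genes, which belonged to 4 of 42 genes (Dnajb6, Hspd1, Hspe1 and Hsph1), and in 198 of 32851 windows of all genes (0.603%). All 4 fell on ribosomes at 8 h, with Hspd1 and Hspe1 sharing their promoter. Of the other 38, 18 fell, 5 rose, 12 did not pass and 3 were not listed on ribosomes. Members without a window, among them Hsp90aa1, Hsp90ab1, Hspa8 and Hspa9, were not searched. The window of Hspe1 is shown because it serves both genes, with the matching letters, which overlap, in capitals.
Hspe1 promoter, chr1:55087898-55088197, plus strand: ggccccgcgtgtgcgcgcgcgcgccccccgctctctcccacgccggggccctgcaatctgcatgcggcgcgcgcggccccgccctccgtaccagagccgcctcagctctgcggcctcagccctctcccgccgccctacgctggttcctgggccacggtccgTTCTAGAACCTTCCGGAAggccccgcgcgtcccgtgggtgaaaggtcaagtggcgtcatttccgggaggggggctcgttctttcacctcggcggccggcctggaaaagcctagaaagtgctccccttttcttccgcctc

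The first exons of Hspd1 and Hspe1 overlap on opposite strands, so without strand reads there cannot be told apart. Heat shock factor Hsf1 itself did not pass, at 140.0 and 129.8 on ribosomes at 8 h against 176 and 101 at 0 h (log2 0.02).

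The changes built up over the time course on ribosomes. At 2 h none of the 51 genes passed in limma, against 0.742% down and 0.729% up of all genes. An unadjusted p under 0.05 was seen in 11 of the 51, with no such count over all genes. At 4 h 5 rose and 4 fell, against 9.16% and 6.56% of all genes. The risers were Hspa14 (1.20), Dnaja1 (0.86), Pfdn4 (0.82), Dnajb4 (0.62) and Hsp90ab1 (0.49), and the fallers Dnaja3 (-1.17), Dnaja4, Hspa12a and Cct2 (-0.73). At 6 h the same 5 genes rose and 22 fell, against 14.6% up and 13.3% down over all genes. The share of chaperones that rose at 4 h was thus near that of all genes, and Dnajc14 passed only at 8 h. At 4 h 1 of 7 CCT genes had fallen, at 6 h 5 and at 8 h 6. Between 6 h and 8 h none of the 51 passed in limma, against 0.597% down and 0.0928% up of all genes. Nearest to passing was Cct3 (-0.86 ± 0.20, adjusted p 0.0517). Of the 51, 14 had an unadjusted p under 0.05, which was not counted over all genes. Without 4 h replicate 1, the library that stood apart, 5 genes passed at 4 h, and 11 without 4 h replicate 2.

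Pfdn4 had a higher mean on ribosomes at each later time. It had 108 and 122 at 0 h, 128 and 146 at 2 h, 223 and 186 at 4 h, 431 and 370.2 at 6 h and 488 and 515 at 8 h. Hspa14 had 14.9 and 13.3 at 0 h, 27.4 and 24.9 at 2 h, 28.4 and 39.7 at 4 h, 49.8 and 50.03 at 6 h and 38.6 and 47.6 at 8 h. Dnaja1 had 237 and 195 at 0 h, 309 and 275 at 2 h, 387 and 393 at 4 h, 459 and 355 at 6 h and 304 and 373 at 8 h. Hspa14 and Dnaja1 had their highest mean at 6 h, whereas Pfdn4, Dnajb4 and Hsp90ab1 had theirs at 8 h. Dnaja3 had 109 and 113 at 0 h, 62.5 and 71.4 at 2 h, 48.9 and 48.6 at 4 h, 47.9 and 35.8 at 6 h and 25.6 and 21.1 at 8 h, lower than both 0 h libraries in every later library. Pfdn6 instead had 30.5 and 13.7 at 2 h and 15.7 and 26.6 at 4 h and was below both 0 h libraries from 6 h on.

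**Figure D3:**
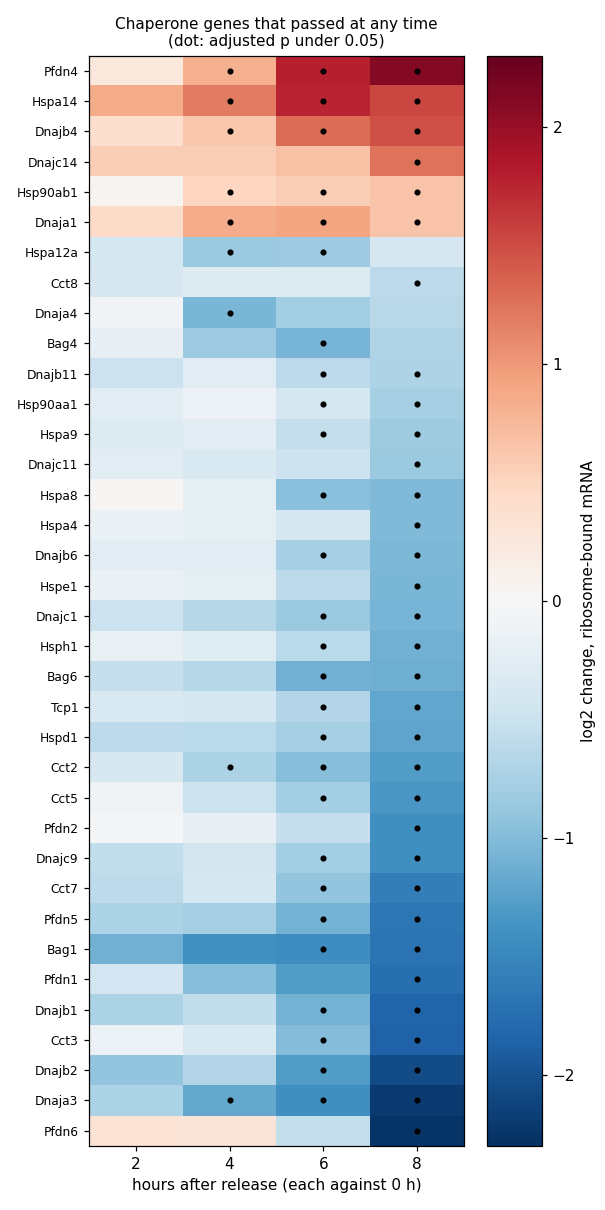
Log2 change on ribosomes at 2, 4, 6 and 8 h, each against 0 h (columns), of the 36 chaperone genes that passed at any time (rows, ordered by the 8 h change). Dots mark an adjusted p under 0.05. Pfdn4, Hspa14, Dnajb4, Hsp90ab1 and Dnaja1 carry dots from 4 h, and most falling genes from 6 h or 8 h.

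In total RNA few chaperone genes changed. None of the 54 passed in limma at 2, 4 or 6 h, and 1, 3 and 8 had an unadjusted p under 0.05. Over all genes 0.0% passed in each direction at 2 h and at 4 h, and at 6 h 0.177% rose and 0.0253% fell. At 8 h 7 fell and 1 rose, or 13% and 1.85%, against 3.02% and 0.947% of all genes, with a median of -0.25 for the chaperones and 0.01 for all genes. Without the mitochondrial, ER and pseudogene members 6 of 42 fell and 1 rose. The 7 were Cct2, Cct3, Cct5, Dnajb1, Dnajb2, Dnajc11 and Pfdn6, and Pfdn4 rose. All 7 were among the 27 that fell on ribosomes, which makes 100% of the total RNA falls and 25.9% of the ribosome-bound ones. The other 20 that fell on ribosomes and 5 of the 6 that rose there did not pass in total RNA. Over all genes too, calls were far fewer in total RNA, where 239 of 7917 fell, against 1648 of 7543 on ribosomes. The overlap of calls was not counted over all genes, so it says nothing about chaperones as a set. Most of the 8 calls in total RNA at 8 h ended without total RNA 0 h replicate 1, and calls over all genes became fewer there as well.

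Whether transcripts changed on ribosomes beyond their change in total RNA was tested by the difference of the changes, ribosome-bound minus total RNA. Of the 50 genes in both tables, 10 passed below 0 and 5 above 0 at 8 h (20% and 10%). Over all genes 9.43% passed below 0 and 11.6% above. Without the mitochondrial, ER and pseudogene members 7 of 39 passed below 0 and 4 above. The median over the 50 was -0.45, against -0.03 for all genes. The 10 were Dnaja3, Bag6, Hspd1, Dnajc9, Pfdn5, Hspa12a, Tcp1, Dnajb6, Hspa9 and Hsph1, and the 5 were Dnajc14, Dnajb4, Pfdn4, Dnaja1 and Hsp90ab1. At 2 h none passed in limma, against 0.0817% below and 0.0136% above over all genes. Of the 50, 8 had an unadjusted p under 0.05, again not counted over all genes. At 4 h Dnaja3 (-1.46 ± 0.39, adjusted p 0.0295) and Hspd1 (-1.05 ± 0.29, adjusted p 0.032) passed below 0 and none above, against 2.01% and 3.09% of all genes. At 6 h 8 passed below 0 and 4 above, against 4.37% and 7.34%. Those that passed above 0 at 6 h were Hspa14 (1.30), Dnajb4 (1.18), Pfdn4 (0.86) and Dnaja1 (0.81). Most of the chaperone calls at 6 h ended without total RNA 0 h replicate 2. Calls over all genes became fewer there too, though by a smaller share. The comparisons at different times share the 0 h libraries.

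**Figure D4:**
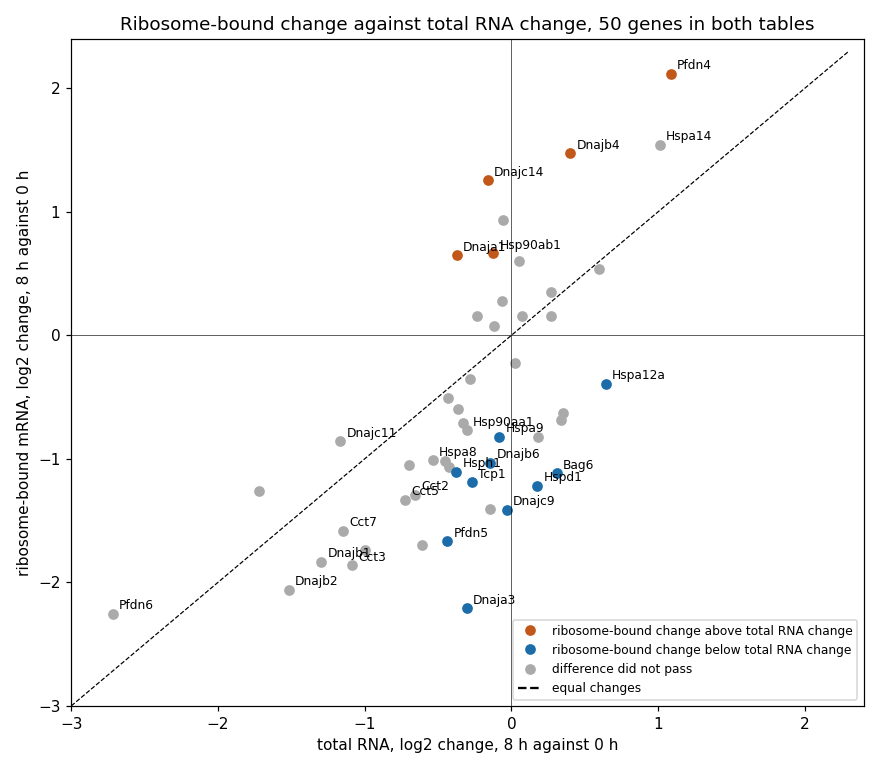
Log2 change at 8 h against 0 h on ribosomes (y axis) against that in total RNA (x axis) for the 50 chaperone genes in both tables, with the line of equal changes dashed. Coloured points passed the test of the difference, 5 above the line and 10 below it.

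The order of levels differed between the RNA kinds. Averaged over all times on ribosomes, the values per kilobase of transcript were 314 for Hsp90aa1, 291 for Pfdn4, 284 for Hsp90ab1, 222 for Dnajc21 and 189 for Dnajb4. In total RNA the same 5 genes led, with Pfdn4 at 445, Dnajc21 at 348, Hsp90aa1 at 215, Dnajb4 at 187 and Hsp90ab1 at 184. At 8 h Pfdn4 led on ribosomes with 536 per kilobase, against 123 at 0 h, when Hsp90aa1 led with 384. The tables were normalised separately, so levels in ribosome-bound mRNA and total RNA stand side by side without a test.

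A list of 44 related co-chaperones and regulators outside the symbol rule had 34 genes in both tables. On ribosomes at 8 h 13 fell and 2 rose, against 21.8% and 20.2% of all genes, with a median of -0.36. Cdc37, which loads kinases onto HSP90, had 13.1 and 7.29 at 8 h, against 35.2 and 33.3 at 0 h (log2 -1.70), and it also fell in total RNA (-1.36). St13, an HSP70-binding co-chaperone, had 96.5 and 119 on ribosomes, against 184 and 173 (-0.73). Stip1, which links HSP70 to HSP90, had 155 and 222, against 314 and 244 (-0.58). Sugt1 (-0.95) and the mitochondrial HSP90 Trap1 (-1.51) also fell, while other HSP90 co-chaperones in the list, among them Ahsa1 (-0.16), Fkbp4 (-0.98), Fkbp5 (0.28), Ppid (0.82) and Ppp5c (-0.76), did not pass. The 2 that rose were Ptges3, the HSP90 co-chaperone p23, with 73.7 and 72.2 at 8 h against 38.7 and 48.7 at 0 h (0.73), and Pdcl3, a phosducin-like partner of CCT, with 120.0 and 169 against 41.9 and 46.4 (1.67). In total RNA Cdc37 and Pdrg1 fell and none rose, against 3.02% and 0.947% of all genes. The ribosome-bound minus total RNA change passed above 0 in Pdcl3 (1.47). It passed below 0 in Gak, Hyou1, Sgta, Sil1 and St13 (-1.80, -1.15, -1.68, -1.71 and -0.77). Over all genes 11.6% passed above 0 and 9.43% below. Hspa5, Hsp90b1 and the other 9 ER chaperones and folding enzymes listed had 5 falls and 1 rise on ribosomes, beside the same 21.8% and 20.2% of all genes.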

How the data were processed

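RNA was measured in 20 libraries, 10 of ribosome-bound mRNA and 10 of total RNA. The labels describe the total RNA samples as ribosome-bound too, and titles and the design text were followed. Per the submitters' processing notes the authors used the build mm10 with HISAT2, HTSeq, Trimmomatic 0.36, FastQC, SAMtools, limma and edgeR, in an order not stated. Whether reads were poly(A)-selected or counted by strand is not given in the sources used here. The deposited values are treated as a signal: the authors' CPM values, scaled by a factor that differs between libraries, so that columns sum to 968768 to 1052767. Low values were whole multiples of one step in each library (within 0.01 of a read), from which depth was inferred.

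From these deposited values log2(value + 1) was computed, so a fold change of a low gene is understated. Genes with a value of at least 1 in at least 2 libraries were kept, and limma 3.58.1 (R 4.3.3) with a mean-variance trend was fitted separately to each table over all 5 times, which share the spread, and to both tables together for the difference of the changes. P-values were adjusted over all genes by Benjamini-Hochberg, with a threshold of 0.05. The code was tested on simulated data. The members and lists were chosen with earlier results of these data known. Every member is named. Library values are given for the CCT, prefoldin and HSP90 genes, for Hspa8, Hspa4, Hsph1, Hspa14, Dnaja1, Dnajb1, Hspd1, Hspe1 and Bag6, for the genes with the largest changes each way among those that passed, did not overlap and averaged at least 20, and for others, such as Hspa12a and Dnajb2, chosen after their values were seen. Alternatives were other pseudocounts, filters, centring, a length and GC correction, no trend, a replicate block and leaving out each library. Replicate numbers did not pair the samples. Of the deposited IDs 8103 of 8114 matched GENCODE vM21, and all 55 members did. For levels per kilobase, 3′ ends and the length and GC correction, 1 annotated transcript per gene was used. It was the longest of the protein-coding ones marked as principal, where there were any. Counts were not tested as such.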

Additional observations from a re-analysis of the deposited data

Results flagged for a closer look

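For 15 genes the change at 8 h against 0 h differed between ribosome-bound mRNA and total RNA by the test of that difference, at an adjusted p under 0.05 in limma, and these are worth a closer look. The ribosome-bound minus total RNA change was above 0 in 5 genes, at 1.41 in Dnajc14, 1.07 in Dnajb4, 1.03 in Pfdn4, 1.02 in Dnaja1 and 0.79 in Hsp90ab1. It was below 0 in the other 10 genes. The 3 mitochondrial members among them were Dnaja3 at -1.91, Hspd1 at -1.39 and Hspa9 at -0.74. Bag6 was at -1.42, Dnajc9 at -1.38, Pfdn5 at -1.23 and Hspa12a at -1.03. Tcp1 was at -0.92, Dnajb6 at -0.89 and Hsph1 at -0.73. Of the chaperone genes tested for this difference, 10% passed above 0 and 20% below. Over all genes the shares were 11.6% above and 9.43% below, so the share above 0 was not higher among chaperones. The calls of Dnajc14, Pfdn5, Hspa12a, Hspa9, Dnajb6, Dnaja1 and Pfdn4 did not hold in every alternative setting. With the length and GC correction the differences were 1.30 in Dnajc14, -0.80 in Pfdn5 and 0.57 in Dnaja1, and these did not pass. In Bag6 both 8 h libraries lay below 0 h on ribosomes and above 0 h in total RNA, while Pfdn4 passed upward in each RNA kind. Groups of 2 libraries were too small to look for single outlying samples.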

How the results depend on the processing

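Across the alternatives, 144 of 172 counts of called chaperone genes stayed within 1.5 times the reported count. These take in the comparisons with a reported count of 0, where 0 calls again counted as the same. The figure therefore overstates how steady the other counts were. Without the mean-variance trend, 5 genes passed on ribosomes at 4 h, 17 on ribosomes at 6 h and 5 in total RNA at 8 h, and the ribosome-bound minus total RNA change passed in 0 at 4 h and 4 at 6 h. Over all genes calls became fewer without the trend too. They went from 691 up and 495 down to 422 and 239 on ribosomes at 4 h. In total RNA at 8 h they went from 75 up and 239 down to 16 and 142. The counts below are of chaperone genes alone. A pseudocount of 0.5 gave 1 call between 8 h and 6 h on ribosomes. In total RNA at 6 h a pseudocount of 5 gave 2 calls, median centring 1 and the length and GC correction 2. Leaving out 1 library at a time gave 0 to 3 calls on ribosomes at 2 h, 5 to 11 at 4 h, 15 to 23 at 6 h and 27 to 33 at 8 h. It gave 2 to 9 calls in total RNA at 8 h, and for the difference of the changes 0 to 3 at 4 h, 1 to 9 at 6 h and 13 to 16 at 8 h. Of the calls at 8 h, 23 of 33 on ribosomes, 8 of 15 differences and 2 of 8 in total RNA passed in every setting run. Some changes that had not passed turned their sign with 1 library left out. In total RNA at 8 h the ranges were -0.17 to 0.27 for Cct4, which was -0.10 without 8 h replicate 1, -0.16 to 0.86 for Dnaja4, -0.73 to 0.41 for Dnajc14, -0.20 to 0.14 for Dnajc9, which was 0.12 without 8 h replicate 2, and -0.022 to 0.38 for Hspd1. For the difference at 8 h they were -1.13 to 0.041 for Dnajb2 and -0.60 to 1.53 for Pfdn6, which was -0.12 without total RNA 8 h replicate 1. With the length and GC correction Dnajc9 was at 0.11 in total RNA and Hspe1 at 0.072 in the difference. The cause of these moves was not tested. Same-numbered libraries did not deviate together, with correlations of -0.11 to 0.05 on ribosomes and -0.05 to 0.11 in total RNA, so the letters give only a number. A replicate block gave 0, 8, 25 and 33 calls on ribosomes at 2, 4, 6 and 8 h, 8 in total RNA at 8 h and 15 for the difference at 8 h. An edgeR test on counts was not run. With 2 libraries a group small changes cannot be seen. Levels near 1 rest on fewer reads than a value of 10, behind which lay 282 to 533.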
